A study of Mus musculus with 12 samples.

Results

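Interferons signal through receptor-bound Janus kinases and the STAT proteins these kinases phosphorylate. The data described here are the mRNA counts of 6 genes of that pathway, namely the transcription factors Stat2 and Irf1, the feedback inhibitor Socs1 and the kinases Jak1, Jak2 and Tyk2. They were chosen by gene symbol from the 750 genes measured, and all 6 were among the 689 genes that passed the filter on low values. The counts come from 12 breast tumors, 3 in each of 4 treatment groups.

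When an interferon binds, the kinases on its receptor (Jak1 and Tyk2 for type I interferons, Jak1 and Jak2 for interferon gamma) phosphorylate STAT proteins. Complexes that contain Stat2 and Irf9 then bind interferon-stimulated response elements, and STAT dimers bind gamma-activated sites. Irf1 and Stat2 are themselves interferon-induced genes, and Socs1 is induced by the same signal and blocks the kinases, so that it closes a negative feedback loop. The kinases are usually described as constitutive, and the comparison of the inducible with the constitutive genes is the question followed below.

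All tumors belonged to the K14-Cre-Brca1f/f;Trp53f/f breast cancer model, in which the keratin 14 promoter drives Cre in epithelial cells and Brca1 and Trp53 are both deleted. Pieces of tumor were transplanted into syngeneic mice, so the vehicle tumors carried the same deletions as the treated ones. ADU-S100, an agonist of the innate immune adaptor STING, was injected once into the tumor (50 μg in 40 μl), olaparib, a PARP inhibitor, was given daily at 50 mg/kg, the combination group received both agents and the vehicle group neither. By the study's methods, the vehicle and olaparib tumors were injected with 40 μl of saline instead. Mice not given olaparib received diluted DMSO intraperitoneally. Tumors were taken after 3 days. The mice's ages are not given in the sources used here. The tumors are called by the numbers they have in the sample labels, which are 1269, 1529 and 1536 for vehicle, 1506, 1512 and 1513 for ADU-S100, 1510, 1517 and 1521 for olaparib and 1251, 1270 and 1539 for the combination.

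The promoters of the inducible genes are shown first, because the sequences hold the elements named above. Each is the 250 bases before the RefSeq start site (mouse build GRCm38.p6), written 5′ to 3′ on the gene's strand, and capitals mark a match to GAAANNGAAA (the core of the interferon-stimulated response element, also searched as its reverse TTTCNNTTTC) or to TTCNNNGAA (the gamma-activated site, which reads the same on both strands). The Stat2 promoter lies at chr10:128270248-128270497 on the plus strand, that of Irf1 at chr11:53769764-53770013 on the plus strand, and that of Socs1 at chr16:10785537-10785786 on the minus strand.
Stat2: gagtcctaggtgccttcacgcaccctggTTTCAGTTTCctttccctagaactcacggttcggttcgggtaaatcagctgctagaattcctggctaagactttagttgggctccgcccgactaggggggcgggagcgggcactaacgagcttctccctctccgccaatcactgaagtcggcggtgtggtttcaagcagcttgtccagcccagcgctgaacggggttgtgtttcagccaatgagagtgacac
Irf1: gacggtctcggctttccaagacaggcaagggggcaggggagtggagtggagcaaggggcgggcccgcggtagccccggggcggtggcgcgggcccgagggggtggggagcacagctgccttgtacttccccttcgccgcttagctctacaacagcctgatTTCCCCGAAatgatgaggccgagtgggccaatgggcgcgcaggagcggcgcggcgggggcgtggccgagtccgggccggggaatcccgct
Socs1: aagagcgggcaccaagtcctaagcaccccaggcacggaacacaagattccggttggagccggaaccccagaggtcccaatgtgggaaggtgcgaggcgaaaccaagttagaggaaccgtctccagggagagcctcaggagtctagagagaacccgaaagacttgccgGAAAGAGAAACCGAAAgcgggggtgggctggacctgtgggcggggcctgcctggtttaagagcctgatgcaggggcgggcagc
Stat2 held TTTCAGTTTC from 222 to 213 bases before its start, a match on the opposite strand. Irf1 held TTCCCCGAA from 90 to 82 bases before its start, and its second annotated start had no match. Socs1 held GAAAGAGAAA from 83 to 74 bases and GAAACCGAAA from 77 to 68 bases before its start, and these 2 matches overlap. No match to these letters lay in the same window of Jak1 (chromosome 4), Tyk2 (chromosome 9) or Jak2 (chromosome 19). Of 32851 promoter windows of this length in the RefSeq table, 2.98% held the response element, 7.02% the gamma-activated site and 9.66% either of them. The matches describe letters in a window, and binding was not measured.

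The counts before scaling could be recovered from the deposited values and summed to between 106206 (olaparib tumor 1517) and 1519471 (vehicle tumor 1269) per tumor. The factor by which each count had been multiplied ran from 0.589 in olaparib tumor 1521 to 10.5 in 1517, with 0.810 to 0.824 in the combination tumors, 0.682 to 1.49 in vehicle and 1.43 to 2.85 in ADU-S100. Across the 689 genes the median log2 difference from vehicle was 0.21 in the combination, 0.44 in ADU-S100 and 0.45 in olaparib, and the values of the 6 genes are best read beside those shifts. Epcam, Cdh1 and Muc1, markers of the labelled epithelial tumor, summed to between 10802 and 22177 normalized counts in every tumor. The keratin genes Krt5, Krt8, Krt14 and Krt18 were not among the genes measured.

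Of the 6 genes, Socs1 alone was higher in every combination tumor than in any other tumor. It measured 251, 306 and 237 normalized counts in combination tumors 1251, 1270 and 1539, against 136, 146 and 94.9 in vehicle tumors 1269, 1529 and 1536. ADU-S100 tumors 1506, 1512 and 1513 held 208, 112 and 98.4, and olaparib tumors 1510, 1517 and 1521 held 79.9, 136 and 160.3. All 3 combination tumors lay above all 9 others, the nearest being ADU-S100 tumor 1506, while the vehicle and single-agent groups overlapped one another. Such a gap above all 9 others was found for 3.19% of the 689 genes (22 genes). The group means were 265 ± 36.4 in the combination, 125 ± 26.9 in vehicle, 139 ± 59.7 in ADU-S100 and 125 ± 41.3 in olaparib (SD, n = 3 each).

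Socs1 was thus 2.12-fold the vehicle level in the combination, a log2 difference of 1.09 with a standard error of 0.42. The limma p-value was 0.0246 before and 0.472 after Benjamini-Hochberg adjustment over the 689 genes. Against ADU-S100 alone the log2 difference was 0.99 (limma adjusted p = 0.492), and against olaparib alone it was 1.12 (limma adjusted p = 0.594). Neither agent alone moved Socs1 from vehicle by more than its error, with log2 differences of 0.10 (95% interval -0.82 to 1.02) for ADU-S100 and -0.03 (-0.95 to 0.89) for olaparib. The interaction (the change that ADU-S100 made on top of olaparib, less the change it made on top of vehicle) was 1.03 on the log2 scale with a standard error of 0.59 (limma adjusted p = 0.439), and it was 1.58 at a shared median and 1.74 by quantile normalization. None of these passed the adjusted threshold of 0.05, and the adjusted test called 0 genes, or 0.0% of the 689, in each of the 6 comparisons, with 33 to 75 genes at an unadjusted p under 0.05.

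The height of Socs1 over the olaparib tumors depended on the scale. As a share of all counts it was 208, 272 and 216 per 1000000 counts in combination tumors 1251, 1270 and 1539, and at most 196 in the 9 others, so the gap remained but narrowed. After each tumor was set to the same median gene, the combination still lay above vehicle (as did 11.3% of genes) and above ADU-S100 (16.3%), but olaparib tumor 1521, at 0.25 log2 units above its median gene, fell among the combination tumors, which were at 0.29, 0.66 and 0.20. Socs1 was also a low-count gene, with 13 recovered counts in olaparib tumor 1517, for which counting error alone gives a 95% Poisson interval of 72.5 to 233 normalized counts. The labels' numbers split the tumors into those starting with 12 (1 vehicle and 2 combination tumors) and those starting with 15, and the Socs1 difference between combination and vehicle was 1.02 within the former and 1.0 within the latter on the log2 scale.

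**Figure D1:**
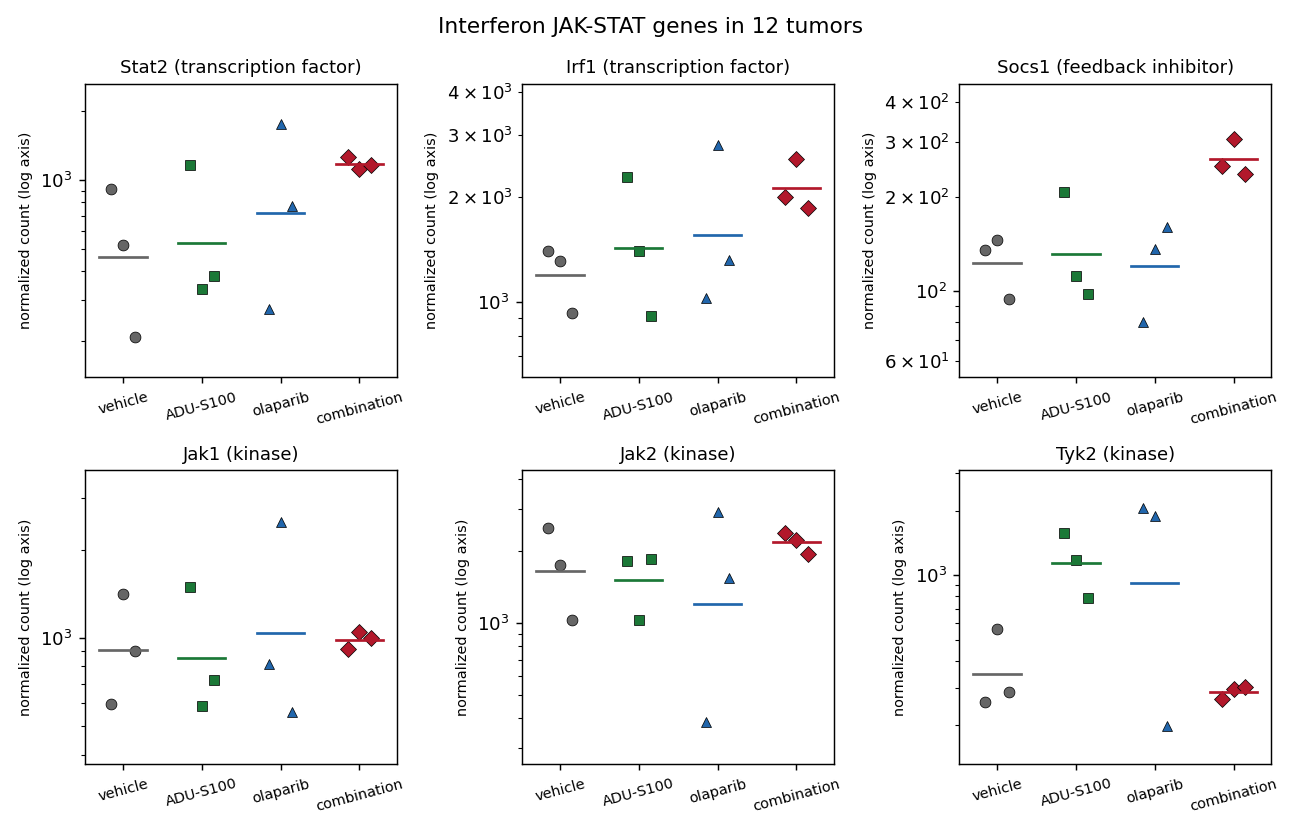
Normalized counts of the 6 genes in each tumor (log axes with a range of their own), by treatment group; each point is 1 tumor and the horizontal line is the group's mean on the log2(value + 1) scale (n = 3). Socs1 is highest in the 3 combination tumors (237 to 306), and Tyk2 is at 788 to 1575 in ADU-S100 and at 264 to 301 in the combination.

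Stat2, the STAT protein specific to type I and type III interferon signals, had its highest group mean in the combination. Its highest combination value was 1.13 times its lowest, close to the 1.14 of Jak1 and of Tyk2. Normalized counts of Stat2 were 1255, 1115 and 1167 in combination tumors 1251, 1270 and 1539, and 911, 523 and 208 in vehicle tumors 1269, 1529 and 1536. ADU-S100 tumors 1506, 1512 and 1513 held 1168, 334 and 384, and olaparib tumors 1510, 1517 and 1521 held 275, 1750.1 and 772. The combination did not overlap vehicle, as was true of 18.4% of genes in that direction, but ADU-S100 tumor 1506 and olaparib tumor 1517 reached into or above its range. At a shared median gene the separation from vehicle was lost, since vehicle tumor 1269 was 2.68 log2 units above its median and the combination tumors 2.49 to 2.60, while Stat2 in the combination then lay above ADU-S100 without overlap, as did 16.3% of genes. Means were 1179 ± 70.9 in the combination, 547 ± 352 in vehicle, 629 ± 468 in ADU-S100 and 932 ± 751 in olaparib (SD, n = 3 each).

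The log2 difference of Stat2 between combination and vehicle was 1.34 with a standard error of 0.74 (limma adjusted p = 0.702). It rested unevenly on the vehicle tumors, since it was 0.77 without 1536 and 1.83 without 1269, and within the tumor number series it was 0.38 for those starting with 12 and 1.82 for those starting with 15. The combination exceeded ADU-S100 by 1.15 and olaparib by 0.71 in Stat2, with limma adjusted p-values of 0.605 and 0.75. The former was 1.71 without ADU-S100 tumor 1506, 0.81 without 1512 and 0.65 with the number series as block, and the latter was 0.018 without olaparib tumor 1510, 1.35 without 1517 and 0.22 with the number series as block.

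Irf1, a transcription factor that interferon gamma induces strongly, gave the same order of group means as Stat2. Combination tumors 1251, 1270 and 1539 held 1995, 2563 and 1853 normalized counts of Irf1, and vehicle tumors 1269, 1529 and 1536 held 1403, 1313 and 932. Its counts were 2279, 1403 and 915 in ADU-S100 tumors 1506, 1512 and 1513, and 1027, 2808 and 1318 in olaparib tumors 1510, 1517 and 1521. Again the combination lay wholly above vehicle on the deposited scale (one of the 18.4% of genes that did), and again tumors 1506 and 1517 were the single-agent tumors within or above its range. At a shared median gene vehicle tumor 1269, at 3.30 log2 units above its median, fell within the 3.16 to 3.72 of the combination, and Irf1 in the combination was one of the 16.3% of genes above ADU-S100 without overlap. The log2 difference from vehicle was 0.82 with a standard error of 0.47 (limma adjusted p = 0.705), and it was 0.69 and 0.74 within the number series starting with 12 and 15.

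Under either agent alone each inducible gene differed from vehicle by less than its standard error. The log2 differences in ADU-S100 were 0.20 for Stat2, 0.26 for Irf1 and 0.10 for Socs1, below the median of 0.44 over all genes tested. After every tumor was set to the same median gene these were -0.21, -0.15 and -0.31, so their sign was not fixed by the data. In olaparib the differences of Stat2, Irf1 and Socs1 were 0.63, 0.38 and -0.03, against a median of 0.45 over all genes tested. At a shared median gene they were 0.29, 0.03 and -0.38. On the deposited scale no gene of the 6 was separated from vehicle in olaparib without overlap, against 3.77% of genes higher and 1.02% lower. In these bulk samples, fewer cells that express a gene and less RNA of it per cell cannot be told apart.

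**Figure D2:**
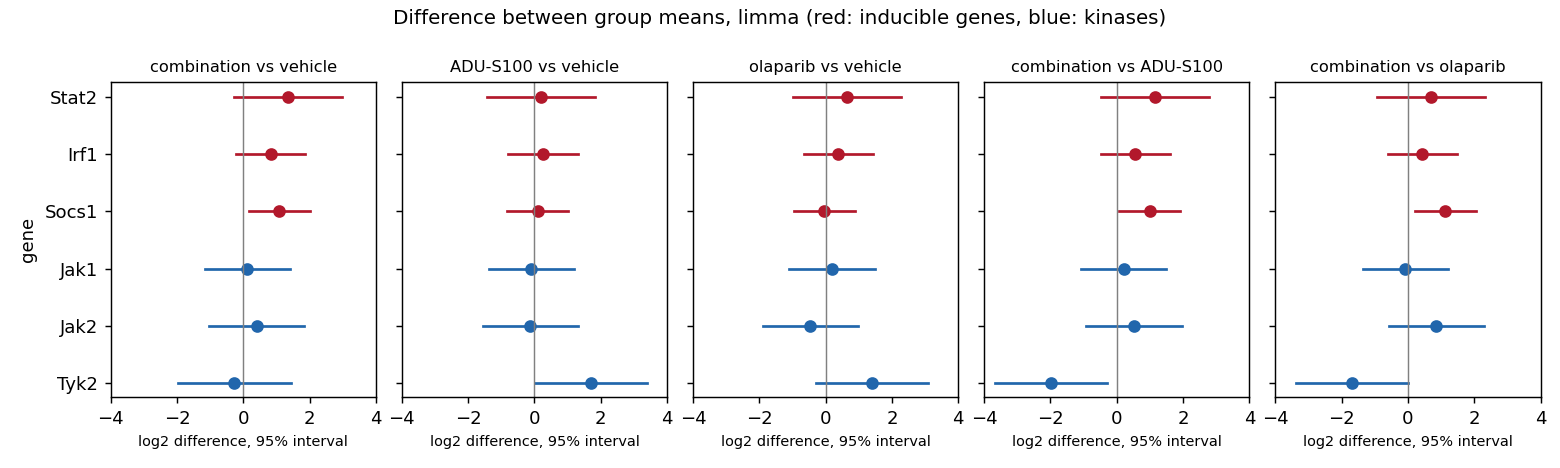
Log2 differences between group means with 95% intervals from limma for each gene (rows) in 5 comparisons (panels); red marks the inducible genes and blue the kinases, and the grey line is no difference. In combination against vehicle the inducible genes are at 0.82 to 1.34 and the kinases at -0.27 to 0.40, and the interval of Socs1 alone lies wholly above 0 there; no adjusted p is under 0.05.

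The 3 kinases had different patterns from one another. Jak1, which serves receptors of both interferon types, held 918, 1049 and 1004 normalized counts in combination tumors 1251, 1270 and 1539 and 596, 1409 and 903 in vehicle tumors 1269, 1529 and 1536. It held 1493, 585 and 718 in ADU-S100 tumors 1506, 1512 and 1513, and 818, 2484 and 558 in olaparib tumors 1510, 1517 and 1521. On the deposited scale every pair of groups overlapped, and the log2 difference of the combination from vehicle was 0.12 with a 95% interval of -1.17 to 1.41. The 3 highest Jak1 values were in 1517, 1506 and 1529, whose scaling factors were 10.5, 2.85 and 1.49, while 1510 and 1512, with factors of 1.95 and 1.96, held 818 and 585. The SD of log2 Jak1 over the 12 tumors fell from 0.63 to 0.29 once the tumors shared a median, the lowest of the 6 genes. On that scale Jak1 in ADU-S100, at 1.67 to 2.03 log2 units above the median gene, lay without overlap below vehicle (3.48% of genes did), below olaparib (4.06%) and below the combination (16.3%), with a lowest value of 2.05 among the 9 others.

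Jak2, the partner of Jak1 on the interferon gamma receptor, held 2384, 2219 and 1938 normalized counts in combination tumors 1251, 1270 and 1539 and 2491, 1747 and 1023 in vehicle tumors 1269, 1529 and 1536. It was at 1817, 1028 and 1848 in ADU-S100 tumors 1506, 1512 and 1513, and at 384, 2903 and 1543 in olaparib tumors 1510, 1517 and 1521. The combination lay above ADU-S100 without overlap, as did Socs1 (10.4% of genes did so), and overlapped vehicle and olaparib. At a shared median gene Jak2 in the combination overlapped ADU-S100 too, whereas Socs1 did not. The widest gap was inside the olaparib group, where 1517 held 7.56 times the count of 1510. Log2 differences of Jak2 from vehicle were 0.40 in the combination, -0.12 in ADU-S100 and -0.46 in olaparib, with limma adjusted p-values of 0.989, 0.974 and 0.78. That of the combination was 0.059 without vehicle tumor 1536 and 0.70 without 1269. At a shared median gene the 3 differences were 0.20, -0.53 and -0.81, and by quantile normalization that of the combination was 0.18.

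Tyk2, the kinase of the type I interferon receptor, had the widest range of the 6 genes on the deposited scale, with a highest value 10.4 times its lowest. Normalized counts were 1575, 1183 and 788 in ADU-S100 tumors 1506, 1512 and 1513, against 256, 563 and 285 in vehicle tumors 1269, 1529 and 1536. In olaparib tumors 1510, 1517 and 1521 they were 2057, 1897 and 198, and in combination tumors 1251, 1270 and 1539 they were 264, 297 and 301. ADU-S100 lay above vehicle without overlap (13.9% of genes did) and above the combination without overlap (20.9% of genes were lower in the combination), while the olaparib group held both the highest tumor and the lowest. Means were 368 ± 170 in vehicle, 1182 ± 394 in ADU-S100, 1384 ± 1030 in olaparib and 287 ± 20.2 in the combination (SD, n = 3 each).

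The log2 difference of Tyk2 between ADU-S100 and vehicle was 1.71 with a standard error of 0.77 (limma adjusted p = 0.809), and between olaparib and vehicle it was 1.41 (limma adjusted p = 0.582), or 0.83 without tumor 1510. The combination stood 1.98 below ADU-S100 and 1.68 below olaparib on the log2 scale, with limma adjusted p-values of 0.492 and 0.594, and its difference from vehicle was -0.27 (95% interval -1.96 to 1.43). The interaction was -3.39 with a standard error of 1.09 (limma adjusted p = 0.346).

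Olaparib tumor 1521 decided whether Tyk2 passed the adjusted test. Without it, Tyk2 was 2.51 above vehicle in the 2 remaining olaparib tumors (limma adjusted p = 0.0126), a change that 7.26% of genes shared in direction and call. The combination then stood 2.78 below olaparib on the log2 scale (limma adjusted p = 0.011, with 6.1% of genes called lower), and the interaction was -4.49 (limma adjusted p = 0.00586, with 11.2% of genes called lower). The ADU-S100 difference from vehicle kept its value of 1.71 and reached a limma adjusted p of 0.326. Tumor 1521 had the smallest scaling factor of the 12, and 1510 and 1517 had factors of 1.95 and 10.5.

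Tyk2 followed the scaling factor more than the other members did. Across the 12 tumors its log2 value had a Pearson r of 0.87 with the log2 factor, against a median of 0.59 over all genes tested, 0.71 for Jak1 and -0.22 for Socs1, a description in which value and factor share the same scaling. After the tumors were set to the same median, the r was 0.66 for Tyk2 and 0.02 for Jak1. Before any scaling, the recovered Tyk2 counts were 553, 602 and 552 in ADU-S100 and 376, 379 and 412 in vehicle, so the ADU-S100 tumors were above vehicle in counts as well. Their totals were 372390 to 683982, against 632152 to 1519471 in vehicle. The recovered count of olaparib tumor 1510 was 1056, the highest, and that of 1517 was 181, the lowest. With the log2 factor as a covariate the difference from vehicle was 0.83 in ADU-S100 and 0.37 in olaparib, and the interaction was -1.37, while the combination's difference was -1.0 from ADU-S100 and -0.55 from olaparib. At a shared median gene the differences from vehicle and the interaction were 1.30, 1.06 and -2.84, with limma adjusted p-values of 0.83, 0.605 and 0.17, and Tyk2 then lay without overlap higher in ADU-S100 than in vehicle (9.0% of genes did), lower in the combination than in ADU-S100 (15.2%) and lower in the combination than in vehicle (5.37%). The part of scaling in the Tyk2 values was not tested.

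**Figure D3:**
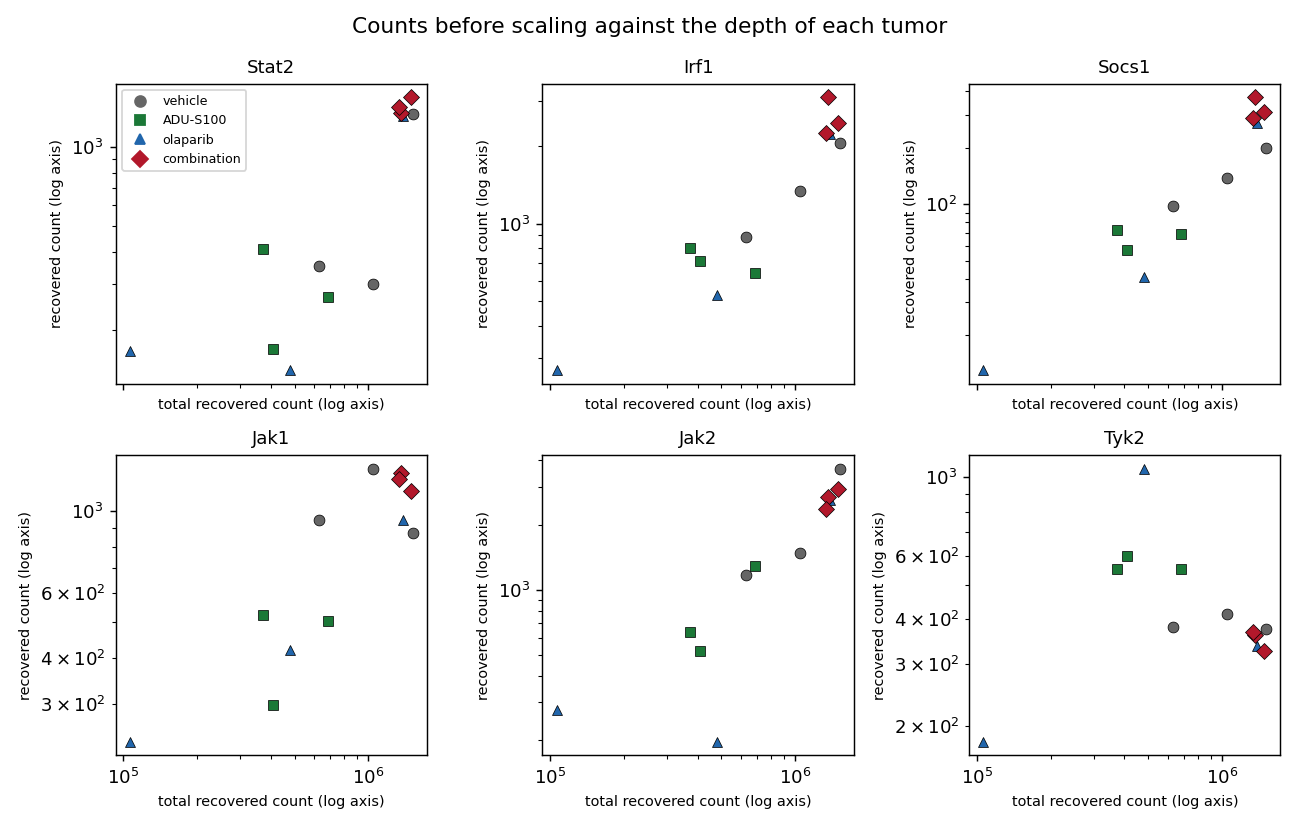
Recovered counts of each gene before scaling (vertical log axis) against the total recovered count of the tumor (horizontal log axis); each point is 1 tumor, with the group given by shape and color. Each gene has its lowest count in olaparib tumor 1510 or 1517, and Tyk2 is at 552 to 602 in the ADU-S100 tumors but at 326 to 367 in the deeper combination tumors, where the other genes have more counts than in ADU-S100.

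To set inducible genes against kinases independently of the scaling, their mean log2 values were subtracted within each tumor. Probes differ between genes, so such a difference is compared only between tumors and is no ratio of transcript numbers. The mean of Stat2, Irf1 and Socs1 minus the mean of Jak1, Jak2 and Tyk2 was 0.04, 0.11 and -0.06 in combination tumors 1251, 1270 and 1539. Vehicle tumors 1269, 1529 and 1536 were at -0.38, -1.26 and -1.28, and ADU-S100 tumors 1506, 1512 and 1513 at -0.98, -1.25 and -1.63. Olaparib tumors 1510, 1517 and 1521 were at -1.61, -1.45 and -0.02. The combination lay above vehicle and above ADU-S100, and olaparib tumor 1521 lay within the range of the combination.

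Part of that pattern was Tyk2. Against Jak1 and Jak2 only, the inducible genes were at -0.80 to -0.67 in the combination and at -1.86 to -1.12 in vehicle, with ADU-S100 at -1.82 to -1.0 and olaparib at -1.61 to -0.76. Tyk2 minus Jak1 was -1.78 ± 0.04 in the combination and -1.40 ± 0.23 in vehicle, but 0.41 ± 0.52 in ADU-S100 and -0.18 ± 1.42 in olaparib (SD, n = 3 each). Socs1 minus Irf1, the inhibitor relative to an induced transcription factor, was -3.00 ± 0.05 in the combination and -3.27 ± 0.10 in vehicle, and there too tumor 1521, at -3.03, lay among the combination tumors.

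**Figure D4:**
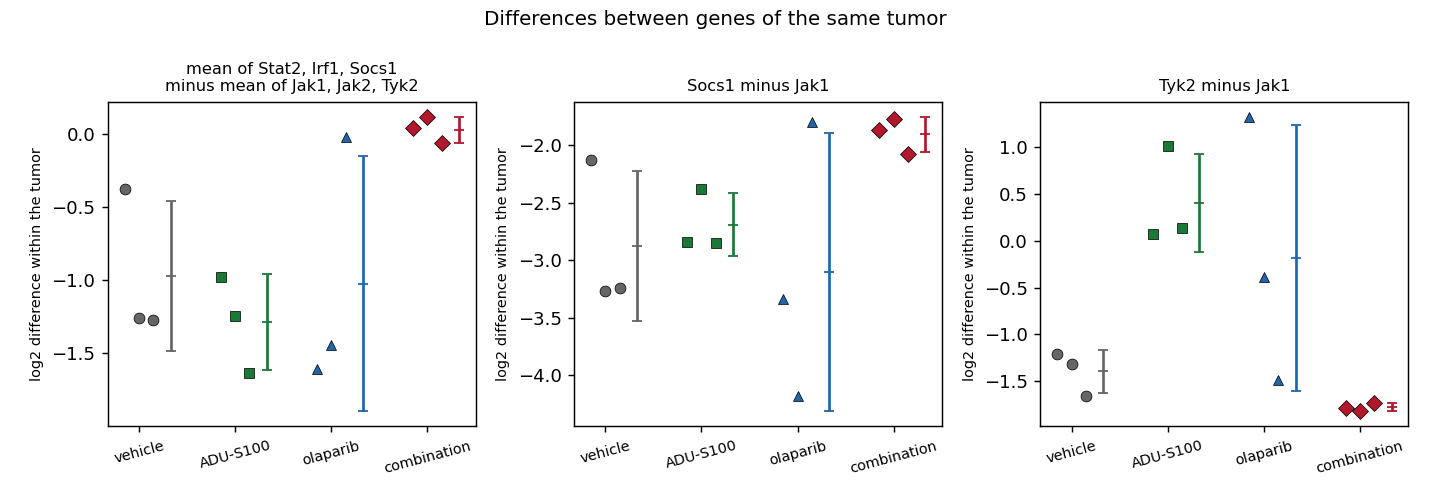
Differences between genes of the same tumor on the log2 scale by treatment group (points are tumors, bars beside them the mean ± SD, n = 3). In the left panel the combination tumors are at -0.06 to 0.11 and olaparib tumor 1521 is at -0.02 with them; in the middle panel Socs1 minus Jak1 is at -2.08 to -1.77 in the combination; in the right panel Tyk2 minus Jak1 is lowest in the combination.

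Across the 12 tumors the inducible genes varied together. Pearson's r between Stat2 and Irf1 was 0.89 and Spearman's rho 0.87 (permutation tests adjusted over the 15 pairs, p = 0.0036 and 0.00645). All permutation p-values are for the deposited scale, where the median gene had an r of 0.59 with the log2 scaling factor. Correlations over all pairs of genes were not computed for comparison. For Stat2 and Irf1 other settings were also tried. The r was 0.91 over the 9 tumors numbered from 15, 0.84 without the 2 tumors farthest from the median of Stat2, and 0.80 once tumors shared a median. Irf1 and Socs1 had r = 0.77 and rho = 0.72 (permutation tests, adjusted p = 0.016 and 0.0406), with r = 0.69 over the 9 tumors, 0.90 without the 2 farthest and 0.85 at a shared median. Stat2 and Socs1 had r = 0.78 and rho = 0.76 (permutation tests, adjusted p = 0.016 and 0.0294), with r = 0.80, 0.66 and 0.68 in the same 3 settings.

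Among the kinases, Jak2 was correlated with the inducible genes to different degrees. Its r with Irf1 was 0.61 and its rho 0.69 (permutation tests, adjusted p = 0.0605 and 0.048), and with Socs1 they were 0.64 and 0.54 (permutation tests, adjusted p = 0.0571 and 0.14), the r rising to 0.65 and 0.68 at a shared median. Its r with Stat2 was 0.78 and its rho 0.83 (permutation tests, adjusted p = 0.00825 and 0.0122), and r was 0.75 over the 9 tumors numbered from 15, 0.77 without the 2 farthest and 0.73 at a shared median. The pair of Jak2 and Jak1 had r = 0.34 (permutation test, adjusted p = 0.333), and 0.16 at a shared median. Tyk2 depended on the scale in its pairs with the other genes. As deposited its r was -0.36 with Jak2, -0.43 with Socs1, -0.13 with Stat2 and 0.08 with Irf1 (permutation tests, adjusted p = 0.333, 0.237, 0.733 and 0.796), and at a shared median it was -0.78, -0.81, -0.69 and -0.64. All these values include the differences between groups, and tumors of 1 group are few, so no correlation within a group was computed.

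The genes whose log2 values were most like each member over the 12 tumors, by Pearson's r among the genes tested, are given as a description. For Stat2 they were Ddx58 (0.91), which encodes the RNA sensor RIG-I, the adaptor Myd88 (0.90) and Irf1 (0.89). Irf1 was most like Stat2, then Slamf6 and Lilra5 (both 0.87). Socs1 was most like Cybb (0.88), a subunit of the phagocyte NADPH oxidase, the chemokine Cxcl16 (0.87) and complement factor B, Cfb (0.87), and the first 2 rose to 0.95 at a shared median. For Jak1 the closest were Tgfb3 (0.96), Entpd1 (0.95) and the endothelial receptor Tek (0.94), and these fell to 0.78, 0.50 and 0.52 at a shared median. Jak2 went with Irak4 (0.96), Gtf3c1 (0.95) and Ifnar2 (0.94), a chain of the type I interferon receptor, and Tyk2 with Cklf, Il6ra (both 0.97) and Abl1 (0.96).

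Of 23 other JAK-STAT pathway genes listed, 14 were measured, and 0 of 14 passed the adjusted test in either direction in any comparison. In the combination against vehicle their log2 differences had a median of 0.48 and ran from -0.31 for Jak3, the kinase of cytokine receptors with the common gamma chain, to 2.20 for Irf7, an interferon-induced regulator of interferon genes. Socs3, another inhibitor of the family of Socs1 and chosen after its values were seen, had a log2 difference of -0.13 in that comparison and one of -1.23 between the combination and ADU-S100. The 3 measured interferon receptor chains lay between 0.08 for Ifnar1 and 0.30 for Ifnar2.

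Upstream, the interferon genes themselves were near the lower limit. The 6 measured summed to 47.0 to 81.2 normalized counts in combination tumors and 58.7 to 63.9 in vehicle, and Ifng did not pass the filter. They summed to 108 to 188 in ADU-S100 and 50.1 to 419 in olaparib. The 5 tested reached the filter's 20 in 3 tumors through the single-agent tumors, with at most 1 value of 20 or more among the vehicle and combination tumors of any of them, so no direction is read from their differences. Before scaling these 5 genes had few counts in every group. Ifna4 was at 6 to 26 in vehicle, 9 to 18 in ADU-S100, 7 to 16 in olaparib and 8 to 16 in the combination. Ifnb1 was at 7 to 20 in vehicle, 10 to 16 in ADU-S100, 5 to 24 in olaparib and 11 to 25 in the combination.

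Downstream, in the combination against vehicle, all 22 type I interferon targets tested were above 0 (65.3% of all genes were), with a median of 1.32 and a range from 0.53 for Ifi27 to 2.20 for Irf7, and 0 of 22 passed the adjusted test. The 15 interferon gamma targets tested were also all above 0, with a median of 1.03 and a range from 0.11 for Nos2 to 3.13 for the chemokine Cxcl9, and 0 of 15 passed. Against vehicle, 19 of 22 type I targets were above 0 in ADU-S100 and 21 of 22 in olaparib, with medians of 0.48 and 0.96, and 14 of 15 interferon gamma targets were above 0 in either agent, with medians of 0.77 in ADU-S100 and 1.07 in olaparib. Of all genes, 78.2% were above 0 in ADU-S100 and 74.6% in olaparib, with medians of 0.44 and 0.45, so the type I targets in ADU-S100 were near the background. The combination against ADU-S100 had 20 of 22 type I and 11 of 15 interferon gamma targets above 0 (40.3% of all genes were), with medians of 0.85 and 0.76. Against olaparib it had 13 of 22 and 11 of 15 above 0 (41.4% of all genes were), with medians of 0.19 and 0.46, and none passed the adjusted test in any of these.

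Markers of other cell types were compared in the same way, and none passed the adjusted test in any comparison. All 8 T cell markers tested were above 0 in the combination against vehicle (65.3% of all genes were), with a median of 1.36. The 9 measured summed to 375 to 600.2 normalized counts in combination tumors and 115 to 257 in vehicle. They summed to 190 to 493 in ADU-S100 and 153 to 755 in olaparib, so both single-agent groups overlapped the combination. The 4 leukocyte markers Ptprc, Cd53, Itgb2 and Spn summed to 950.2 to 964 in the combination, within the 401 to 1082 of vehicle. The 5 stromal markers were all below 0 (34.7% of all genes were), with a median of -1.23, and summed to 13633 to 27278 in the combination and 16265 to 85013 in vehicle. In olaparib against vehicle they were also all below 0 (25.4% of all genes were), with a median of -1.73. The 4 endothelial markers were below 0 in the combination against vehicle (34.7% of all genes were), with a median of -0.79. There 2 of 3 natural killer cell markers were above 0, near the 65.3% of all genes, with a median of 1.35. Of the 8 myeloid markers 4 were above 0 and 4 below, and the B cell marker tested, Ms4a1, was at 0.64. Relative to Ptprc, the pan-leukocyte gene, Socs1 was at -0.83 to -0.47 on the log2 scale in the combination tumors. Vehicle tumor 1269, at -0.16, and olaparib tumor 1521, at -0.26, lay above that range. The other vehicle and olaparib tumors and all ADU-S100 tumors (-2.26 to -1.53) lay below it. On that footing the combination overlapped vehicle and olaparib but not ADU-S100. The part of the cell mixture in the Socs1, Stat2 and Irf1 values was not tested.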

How the data were processed

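RNA of 12 tumors (100 ng each) was measured by nCounter, which counts color-coded probes without amplification. Per the study's methods, the authors corrected the counts for background and scaled them to positive controls and housekeeping genes in nSolver. The deposited values are this normalized signal, on a linear scale. Control genes were not analysed here. Each tumor's values were whole multiples of one number within 0.01 of a count (at least 99.87% of values), which gave the recovered counts; a stricter check that starts from the lowest value of a column did not find whole counts in most columns, so no count test was run; a value of 1, the floor, was read as 0 counts. Poisson intervals cover counting error only.

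Groups came from the sample labels. Limma 3.58.1 (R 4.3.3) fitted 1 mean per group over the 12 tumors to log2(value + 1), for the 689 of 750 genes with at least 20 in at least 3 tumors. Fold changes are on that scale, which understates those of low genes. Tests were two-sided, with Benjamini-Hochberg adjustment over the genes tested and a threshold of 0.05. Each tumor is taken as 1 mouse's; the labels do not say so, and p-values measure the spread between these samples. Exact tests of 3 tumors against 3 cannot go below p = 0.1 and were not used. Correlations had 100000 permutations.

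Named were the 6 genes, the 3 genes most like each, and the largest and smallest combination difference per list; others are marked in the text. Members and lists were chosen with earlier results of these data known. Promoters came from RefSeq. Alternatives were to leave out each tumor, to fit only the 2 groups compared, to scale tumors to a shared median or by quantiles, to let the variance follow intensity, to add 10 before the log, to drop the filter or raise it to 50, to add the number series as a block or the log2 factor as a covariate, and to use the methods' t-test (adjusted). The fit was tested on data simulated for the combination against vehicle, with 200 of 689 genes changed. It called 44% of log2 changes of 2 and 8% of changes of 1, and 1.89% of its calls were false.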

Additional observations from a re-analysis of the deposited data

How the results depend on the processing

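The 0 genes called in the combination against vehicle became 2 in a fit on those groups, 3 by the methods' t-test and 4 with the factor as covariate. Against ADU-S100, 0 became 1 with a pseudocount of 10, a filter at 50, a shared median, quantile normalization or an intensity trend, and 0 to 1 when single tumors were left out (1 without ADU-S100 tumor 1506). Leaving out single tumors gave 0 to 55 calls for olaparib against vehicle, 0 to 54 for the combination against olaparib and 0 to 86 for the interaction, the upper values without olaparib tumor 1521, where Tyk2 was among the calls. No other member passed the adjusted threshold in any of the 22 alternatives, of which 20 were run for the interaction. Of 36 differences of the members, 19 kept their sign throughout, among them every one of Socs1, Stat2, Irf1 and Jak2 between the combination and another group. The cause of the changes of sign below was not tested.

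Signs turned as follows, in log2 units. For Jak1 at a shared median, -0.090 (combination against vehicle), -0.16 (olaparib against vehicle) and 0.065 (combination against olaparib), and by quantile normalization -0.17, -0.20 and 0.031. In ADU-S100 against vehicle at a shared median, Stat2 was -0.21, Irf1 -0.15 and Socs1 -0.31, and by quantile normalization Stat2 was -0.013 and Socs1 -0.36. With the factor as covariate, Stat2 was -0.26 and Irf1 -0.13 in ADU-S100 against vehicle, Irf1 -0.064 and Jak1 -0.60 in olaparib against vehicle, and Jak1 0.79 in the combination against olaparib. With the number series as block, Jak2 was 0.068 in ADU-S100 and Socs1 0.037 in olaparib against vehicle, Jak1 0.24 in the combination against olaparib, and Stat2 -0.23 and Irf1 -0.13 in the interaction.

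Leaving out single tumors gave, in the combination against vehicle, -0.19 to 0.43 for Jak1 and -0.48 to 0.084 for Tyk2; in ADU-S100 against vehicle, -0.38 to 0.69 for Stat2, -0.080 to 0.58 for Irf1, -0.23 to 0.30 for Socs1, -0.49 to 0.22 for Jak1 and -0.46 to 0.18 for Jak2. In olaparib against vehicle it gave -0.0069 to 1.33 for Stat2, -0.041 to 0.68 for Irf1, -0.24 to 0.26 for Socs1, -0.43 to 0.64 for Jak1 and -1.09 to 0.36 for Jak2. Jak1 ran from -0.066 to 0.61 in the combination against ADU-S100 and from -0.53 to 0.55 against olaparib. In the interaction Stat2 ran from -0.18 to 1.15, Irf1 from -0.14 to 0.61 and Jak1 from -0.44 to 0.64.

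No paired analysis was possible because no tumor number is shared between groups. The count tests planned on recovered counts were not run. Each group held 3 tumors, and the totals of the tumors differed 14.3 times. The differences of Socs1, Stat2 and Irf1 did not pass the adjusted test, and the reason was not tested.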
